A study of Mus musculus with 2 samples.

Results

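The genes described here encode the proteins of tight, adherens and gap junctions and desmosomes, with the polarity proteins that position them, in cultured mouse retinal pigment epithelium (RPE). All probe sets annotated to a list of 36 such genes were taken from an expression array of 45101 probe sets, and every listed gene was found, with 80 probe sets between them. They are 36 of 18193 genes that a probe set named alone. Primary RPE cells, the pigmented cells behind the photoreceptors, were grown for 14 days in DMEM with 20% fetal bovine serum and then moved to serum-free medium overnight before RNA was taken. The first culture received no cytokine and is called untreated RPE. The second, RPE with IFNg, received interferon gamma, a cytokine that activated lymphocytes release, at a final 100 U/ml over 24 h. The series as a whole asks about the T-cell inhibitory ligand PD-L1 on IFNg-treated RPE, and its gene Cd274 had signals of 13.6 and 419.5 on the 2 arrays. The sources used here do not state strain, age or how many animals were pooled.

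Each group had 1 array, so no difference has a replicate check or a p-value, and the small number of arrays is what limits precision. Higher and lower describe these 2 arrays. Signals are deposited intensities on a linear scale with a median of 20.1 (untreated) and 20.8 (IFNg). A signal under the pooled median of 20.4 was set to that value, called the floor. A gene or probe set is called measured if it reached the floor on either array and quantified if it did so on both. Where it is measured but not quantified, its ratio is a bound, written as at least. Where a gene has several probe sets, its value is that of the brightest by mean log2 signal, called the chosen probe set. Other measured probe sets of the 36 genes are given beside it, by their range for Gja1. The only available yardstick for scatter is technical. Quantified probe sets that share a gene scattered in log2 ratio by an SD of 0.44 over 4422 genes, and of 0.46 over the 9 junction genes with more than 1.

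An epithelial barrier is built in layers. Tight junctions seal the space between neighbouring cells with strands of claudins, occludin and tricellulin, which plaque proteins such as ZO-1 tie to actin. Adherens junctions and desmosomes join the cells through cadherins held by catenins, plakoglobin and plakophilins, and connexins form gap junction channels that pass ions and small molecules. In RPE this belt forms the outer blood-retina barrier, and its apical face carries long microvilli that surround photoreceptor outer segments.

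The cultures were labelled as RPE with 95% of cells positive for cytokeratin. Of 15 RPE markers, 9 were quantified, among them the transcription factor gene Otx2 (410.9 and 388.5), tyrosinase, Tyr (986.1 and 605.7), and the keratin gene Krt8 (453.5 and 459.9). By chosen probe sets, 4 of the 11 measured RPE markers were at least 2-fold lower with IFNg: Ttr, Tyrp1, Rdh5 and Rlbp1. That is 36.4%, against 4.48% of all measured genes. Rpe65, Best1, Rgr and Dct, which define mature RPE or pigment cells, were under the floor on both. All 10 fibroblast and mesenchymal markers were quantified, with a summed signal of 58918 on the untreated and 54784 on the IFNg array. The epithelial cadherin gene Cdh1 was under the floor on both (2.8 and 10.3), while the neural cadherin gene Cdh2 had signals of 256.2 and 249. In a mixed RNA, fewer cells of a type and less RNA per cell cannot be told apart.

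By their chosen probe sets, Cldn11 was the only measured junction gene called past 2-fold between the cultures. Of the 36 genes, 28 were measured, 24 of them quantified, and 8 were under the floor on both arrays. Of the 28, 1 was at least 2-fold lower with IFNg (3.57%), none was called 2-fold higher, and 27 were not called. The values of Cldn3, Cldn15, Pard6b and Cgn are bounds, so a difference past 2-fold is not excluded for them. The background is 4.48% lower and 8.81% higher over 12754 measured genes, so the share of lower members is near it. The median log2 ratio of the 28 genes was 0.01, against -0.12 over those 12754. This order depends on the choice of probe sets. With all probe sets of a gene averaged, the medians were -0.095 for members and -0.084 for all measured genes. Without probe sets whose ID ending marks shared sequence, they were -0.171 and -0.094. Of the 24 quantified junction genes, 12 (50%) lay within 1.2-fold, a limit chosen after the values were seen, against 29.5% of 10447 quantified genes. Of the same 24, 13 were higher and 11 lower by any amount, where 42.4% of the quantified genes were higher and 57.6% lower. The log2 ratios of the 24 genes had an interquartile range of 0.56, against 0.87 over the 10447.

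At a threshold of 1.5-fold, 7 of the 28 junction genes were lower with IFNg (25%), against 18.6% of measured genes, and 2 were higher (7.14%), against 17.9%. The 7 were Cldn11, Cldn5, Cldn15, Pard6b, Epcam, Jup and Ezr, and the 2 were Mllt4 and Cldn3. Cldn15, Pard6b and Cldn3 pass this threshold as bounds, with 1 array under the floor. Just under it on the higher side lay Prkci (1.4998-fold), Ocln (1.49-fold) and Dsc2 (1.47-fold). The nearest under it on the lower side was Pkp2 (1.26-fold), so the 2 counts depend on where the limit is set. Cldn11 and Ezr were the only quantified members, by their chosen probe sets, whose log2 ratio lay further from 0 than 2 SDs between probe sets of a gene (0.89). Members given as bounds may lie past it too. Such values are not rare, since 8.81% of all measured genes were higher and 4.48% lower past the wider limit of 2-fold.

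**Figure D1:**
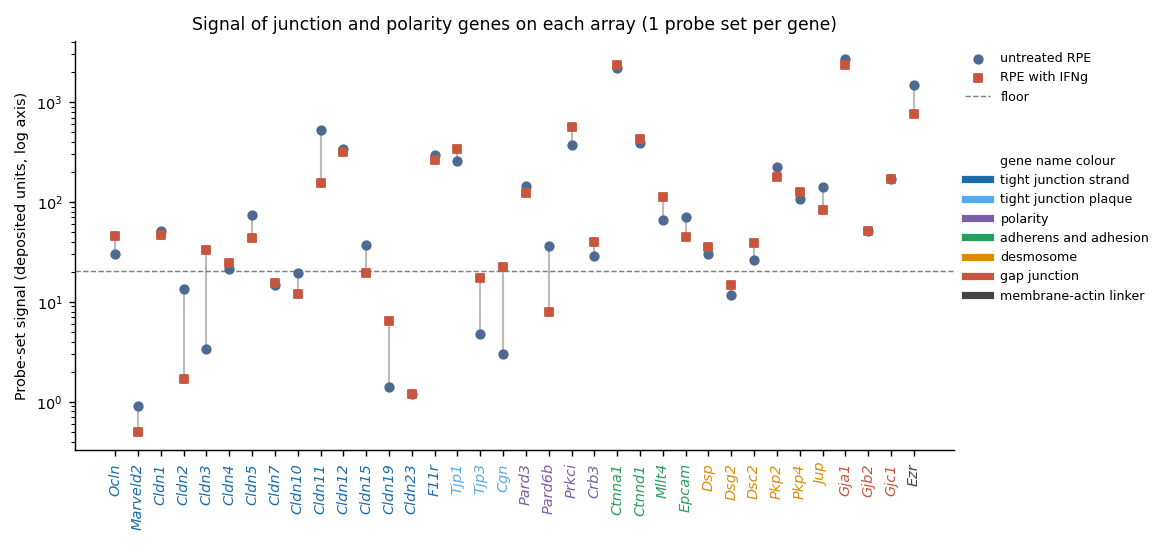
Deposited signal (log axis) of the chosen probe set of each of the 36 genes on the untreated array (circles) and the IFNg array (squares), with the floor as a dashed line. Of the 24 pairs with both points above the floor, 12 lie within 1.2-fold, and Cldn11 and Ezr have the longest lines among genes well above it; heights of different genes are from different probe sets and are not comparable.

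The strand proteins of the tight junction were represented by 15 genes, 12 of them claudins. Of these 15, 9 were measured and 1 was 2-fold lower with IFNg (11.1%, against 4.48% of all measured genes). None was called 2-fold higher (against 8.81%), and the median log2 ratio was -0.12, against -0.12 over all measured genes.

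Cldn11 encodes claudin-11, a strand-forming claudin best known from central myelin, Sertoli cells and the basal cells of the stria vascularis. Its single probe set had a signal of 529 untreated and 155.4 with IFNg. The IFNg signal was 3.40-fold lower (log2 ratio -1.77), the lowest value among the members. Counted from the lowest log2 ratio it held rank 22 of 10447 quantified genes. It was also the only one of the 36 genes past a 3-fold threshold by its chosen probe set, which 0.447% of the 12754 measured genes passed on the lower side. Under all 9 alternatives of scaling, floor and probe-set choice its log2 ratio lay between -1.85 and -1.67. Other floors and probe-set rules could not move it, since its single probe set lay above every floor tried. Only the scalings, loess and the pseudocount could. Since myelin-forming glia express Cldn11, glial markers were read beside it. Of 7 such markers 5 were matched and 2 were quantified, Mbp (105.6 and 89) and Sox10 (45.7 and 24.4), while the myelin gene Mog (2.3 and 8.7) and Gfap (8 and 13) were under it. Their summed signal was 182 untreated and 141 with IFNg, and their part in the Cldn11 result was not tested. The 250 bases before the Cldn11 start site, as RefSeq gives them (GRCm38.p6, chr3:31149670-31149919, plus strand), are shown because it is the member with the lowest log2 ratio. They hold no match, which would stand in capitals, to the interferon-response and E-box motifs searched in the 30 members with such a sequence. Most genes lack them too: over all genes the shares with a match were 3.46% and 19.4%.
Cldn11: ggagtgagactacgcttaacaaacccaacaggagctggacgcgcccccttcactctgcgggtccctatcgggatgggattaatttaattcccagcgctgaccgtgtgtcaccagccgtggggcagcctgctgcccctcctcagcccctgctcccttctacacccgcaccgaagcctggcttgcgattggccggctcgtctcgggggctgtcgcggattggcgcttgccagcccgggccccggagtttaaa

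Cldn5 encodes claudin-5, the claudin typical of endothelium. It had signals of 73.8 and 44 and was 1.68-fold lower with IFNg (log2 ratio -0.75), within 2-fold. Endothelial markers were read beside it: of 10, 8 were measured, none passed 2-fold, and their median log2 ratio was -0.43, against -0.12 over all measured genes. The endothelial cadherin gene Cdh5 had signals of 37.3 and 19.3 and Pecam1 of 28.7 and 20.8, both dim, Tie1 and Vwf were under the floor on both arrays, and Eng was higher with IFNg (465.8 and 699.7). The summed endothelial signal was 1207 untreated and 1240 with IFNg, and its part in the Cldn5 value was not tested.

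The other quantified claudin genes lay within 1.2-fold by their chosen probe sets. Cldn12, a claudin of broad tissue distribution, had signals of 340.7 and 315.3 by its chosen probe set and 176.4 and 148.5 by its second, with log2 ratios of -0.11 and -0.25. Cldn1, a barrier-sealing claudin, had signals of 50.8 and 46.8 (log2 ratio -0.12). Its other probe sets were dim, at 25.9 and 1.6, 7.7 and 13.7, and 0.7 and 0.7. Cldn4, another sealing claudin, lay just above the floor at 21.3 and 24.5.

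Several claudins gave only bounds. Cldn15, which forms cation channels, had signals of 37.1 and 19.6 and was at least 1.82-fold lower with IFNg. Cldn3 had signals of 3.4 and 32.7 by its chosen probe set, which makes it at least 1.60-fold higher, but its other 3 probe sets were under the floor on both arrays. Taking a floor at the pooled 25th percentile instead moved Cldn3 to a log2 ratio of 2.49, so the size of this difference depends on the floor. Claudin genes under the floor on both arrays were Cldn2, a cation-channel claudin (13.5 and 1.7), Cldn7 (14.6 and 15.4), Cldn10 (19.6 and 12.1), Cldn19 (1.4 and 6.5) and Cldn23 (1.2 and 1.2). Cldn19 is known as a main claudin of RPE, and its level on both arrays was not distinguishable from background at this floor.

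The measured non-claudin strand genes lay within 2-fold by their chosen probe sets. Ocln, the gene for occludin, had signals of 30.4 and 45.3 (log2 ratio 0.58) by its chosen probe set, while a second, at 23 and 6.5, was under the floor with IFNg. F11r encodes junctional adhesion molecule A, an immunoglobulin-family protein of the tight junction that also binds leukocyte integrin. It had signals of 293.7 and 260.9 (log2 ratio -0.17), and a dim probe set at 25.7 and 17.9. Marveld2, the gene for tricellulin, which seals corners where cells meet, was under the floor on both arrays (0.9 and 0.5).

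In the tight junction plaque, Tjp1 was the member with a clear signal on both arrays. It encodes ZO-1, the scaffold that binds claudins and occludin to actin, and had signals of 256.5 and 342.6, 1.34-fold higher with IFNg (log2 ratio 0.42). Cgn, which encodes the plaque protein cingulin, was near or under the floor by both probe sets (3 and 22.4, 16.8 and 20.7). Tjp3, the gene for ZO-3, was under the floor on both arrays (4.8 and 17.5).

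**Figure D2:**
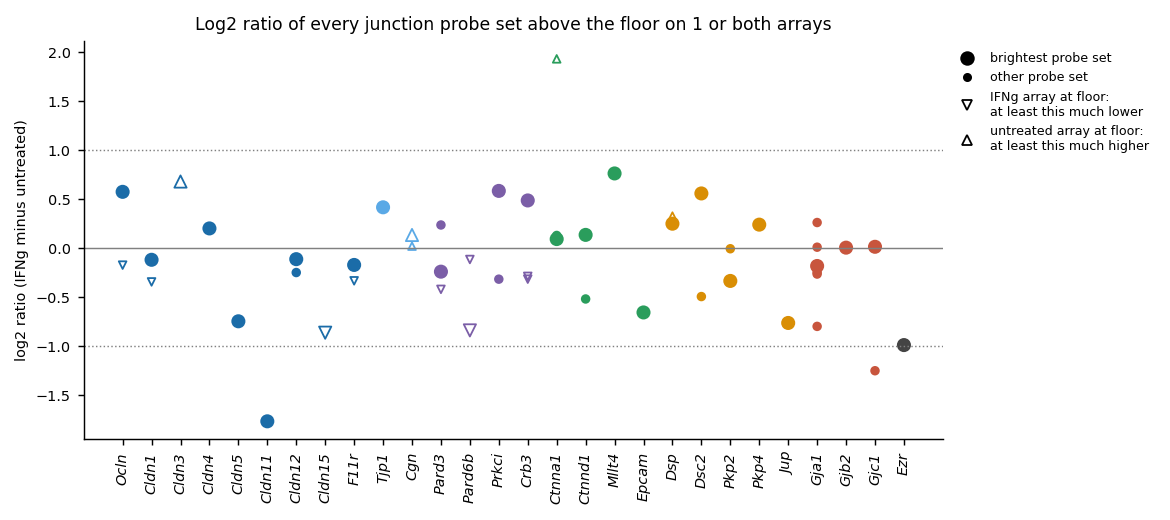
Log2 ratio (IFNg minus untreated) of each measured junction probe set, by gene, with large symbols for the chosen probe set, small symbols for others and open triangles for bounds. Dotted lines mark 2-fold. Cldn11 lies at -1.77 and Ezr on the lower line, while the probe sets outside 2-fold for Ctnna1 and Gjc1 are not the chosen ones.

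The polarity genes showed no common direction. Par-3, Par-6 and atypical protein kinase C form a complex that sets the apical border at which tight junctions assemble, and Crumbs proteins mark the apical side. Prkci, the gene for atypical protein kinase C iota, had signals of 374.6 and 561.9 by its chosen probe set (log2 ratio 0.58). A second Prkci probe set, at 79.8 and 64.1, went the other way (log2 ratio -0.32), so its direction rests on the choice of probe set. Pard3 had signals of 145.8 and 123.5 (log2 ratio -0.24) and, by another probe set, 70 and 82.5 (0.24), a gap of 0.48 that is about the SD between probe sets, while a dim probe set fell under the floor with IFNg (27.3 and 2.8). Pard6b was at least 1.79-fold lower with IFNg, with signals of 36.5 and 8, and its second probe set (22.1 and 5.3) was also under the floor with IFNg. Crb3, the epithelial Crumbs gene, was dim by all its probe sets. By the chosen one it had signals of 28.6 and 40.1 (log2 ratio 0.49). The other 2, at 24.9 and 2.8 and at 25.4 and 16.3, were lower with IFNg. Averaged over its probe sets, Crb3 had a log2 ratio of -0.04.

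The adherens junction catenin genes Ctnna1 and Ctnnd1 lay within 1.2-fold by their chosen probe sets. Ctnna1 encodes alpha-catenin, which links the cadherin complex to actin. It had signals of 2207 and 2355 by the chosen probe set and 1728 and 1891 by another, with log2 ratios of 0.09 and 0.13. Another Ctnna1 probe set was dim untreated and brighter with IFNg (14.3 and 77.9, log2 ratio at least 1.93), and the last was under the floor on both. The bright probe sets differed by 0.04 from each other, so the dim one stands apart from them, and what it measures was not tested. Ctnnd1, the gene for p120-catenin, which stabilises cadherins at the membrane, had signals of 389.5 and 428 (log2 ratio 0.14) and, by another probe set, 271.7 and 189.7 (-0.52). Mllt4, current symbol Afdn, encodes afadin, which ties nectins to actin. It had signals of 66.4 and 112.7, 1.70-fold higher with IFNg (log2 ratio 0.76), the highest value among quantified members. A second Mllt4 probe set was under the floor on both. Epcam, an epithelial adhesion molecule that stabilises claudins, was 1.58-fold lower by its chosen probe set (70.9 and 45) and under the floor by the other (2.3 and 12.8). Both Epcam probe sets carry ID endings that mark shared sequence.

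Desmosome genes lay within 2-fold by their chosen probe sets where measured, with a median log2 ratio of 0.24 over 5 of 6 genes. Jup encodes plakoglobin, the catenin shared by desmosomes and adherens junctions, and had signals of 140.7 and 82.9, 1.70-fold lower with IFNg (log2 ratio -0.76). Its single probe set carries the ID ending that marks sequence shared between transcripts. Pkp2, the gene for plakophilin-2, had signals of 223 and 176.9 by the chosen and 181.7 and 181 by another probe set. Pkp4, a related armadillo protein gene, had 106.9 and 126.3 (log2 ratio 0.24). The desmosomal cadherin gene Dsc2 was dim and its probe sets opposed each other, at 26.2 and 38.6 (log2 ratio 0.56) and at 35.2 and 25 (-0.49). Dsp, the gene for desmoplakin, which anchors intermediate filaments, was also dim at 30.1 and 35.8, and by another probe set at 8.4 and 25.6. All 6 probe sets of Dsg2, the other desmosomal cadherin, were under the floor on both arrays.

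Connexin genes were level between the cultures by their chosen probe sets. Gja1 encodes connexin 43, the main gap junction protein of RPE, and had 6 probe sets, all quantified. By the chosen probe set, whose ID ending marks shared sequence, it had signals of 2675 and 2359 (log2 ratio -0.18). The Gja1 probe sets without such an ending were both lower with IFNg, at 1755 and 1462 (-0.26) and at 996 and 572.8 (-0.80). The 6 log2 ratios ran from -0.80 (996 and 572.8) to 0.26 (86.3 and 103.5), with 4 of the 6 below 0. Gjb2, the gene for connexin 26, had signals of 51.3 and 51.5. Gjc1, the gene for connexin 45, had 168.7 and 170.4 by its chosen probe set but 168.5 and 70.8 by the other (log2 ratio -1.25, 2.38-fold lower). This gap of 1.27 was the widest between probe sets of a member that were above the floor on both arrays, and which of the probe sets reflects Gjc1 was not tested. The lower Gjc1 probe set carries an ID ending that marks shared sequence, and the chosen one does not.

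Ezr encodes ezrin, which links the membrane to actin in the apical microvilli of RPE. It had signals of 1494.5 and 753 and was 1.99-fold lower with IFNg (log2 ratio -0.99), just inside 2-fold. Only 4.49% of quantified genes had a log2 ratio as low or lower. Scaling the arrays to a common 75th percentile moved it past 2-fold (-1.07), and averaging it with a second probe set that was under the floor on both arrays (12.5 and 13.9) brought it to -0.49. Its upstream sequence, shown as that of the member with the second lowest log2 ratio (RefSeq, GRCm38.p6, chr17:6782781-6783030, minus strand), likewise holds no match to the motifs searched.
Ezr: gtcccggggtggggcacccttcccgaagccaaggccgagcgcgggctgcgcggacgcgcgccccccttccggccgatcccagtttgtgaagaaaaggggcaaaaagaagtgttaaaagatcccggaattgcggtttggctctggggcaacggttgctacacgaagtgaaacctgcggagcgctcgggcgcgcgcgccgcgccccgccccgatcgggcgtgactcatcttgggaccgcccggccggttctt

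**Figure D3:**
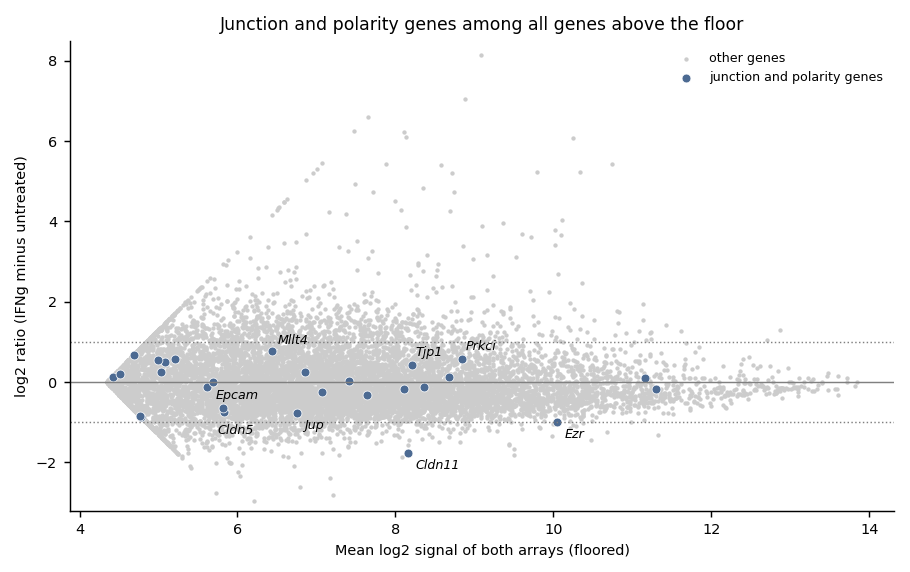
Log2 ratio (IFNg minus untreated) against mean log2 signal for the 12754 measured genes (grey), with the 28 junction and polarity genes in blue. All but Cldn11 are drawn between the dotted 2-fold lines, with bounds at their floored values, and the grey cloud reaches a log2 ratio of 8.16.

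Counting probe sets in place of genes, 51 of the 80 were measured. Of these, 2 were 2-fold lower (Cldn11 and a Gjc1 probe set) and 1 was 2-fold higher (the dim Ctnna1 probe set). Over all 25867 such probe sets the shares were 4.42% lower and 9.65% higher. Of the 9 junction genes with more than 1 quantified probe set, 6 had probe sets on opposite sides of 0 (Ctnnd1, Dsc2, Gja1, Gjc1, Pard3 and Prkci). For these 6 the sign of the chosen value is not shared by all probe sets.

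The rest of the junction machinery was read from 4 lists of genes that are not members. Of 106 listed genes 90 were matched and 65 were measured, with 5 at least 2-fold higher, 4 at least 2-fold lower and 56 not called, bounds included. The higher share of 7.69% and the lower share of 6.15% lie near the 8.81% and 4.48% of all measured genes. Among 31 measured other tight junction and polarity genes, Magi3, a membrane-associated guanylate kinase scaffold, was 3.36-fold higher (55.5 and 186.7), with a dimmer probe set also higher (18.1 and 28.6). Magi1, a scaffold of the same family, was 2.17-fold lower (82.2 and 37.9), with its other probe sets under the floor on both arrays. Cxadr, the coxsackievirus and adenovirus receptor at tight junctions, was 2.63-fold higher by its chosen probe set (52.2 and 137.2), but another was 2.35-fold lower (73.9 and 31.5). Its remaining probe sets above the floor were nearly level (45.3 and 54, 32.8 and 35.6).

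The 20 measured other adherens junction and desmosome genes had a median log2 ratio of -0.31, against -0.12 over all measured genes. Of the 20, 3 were at least 2-fold lower (15%, against 4.48%) and none was called 2-fold higher (against 8.81%). Ppl, with signals of 9 and 40.8, was a bound of at least 1.9997-fold higher and narrowly missed that call. On the lower side Arvcf (54.7 and 27.5) narrowly missed it at 1.99-fold. Plekha7, which binds p120-catenin at the apical adherens belt, was lower by both probe sets above the floor (135.5 and 51.4, 97.1 and 44.3). The placental cadherin gene Cdh3, a cadherin of RPE, was 2.59-fold lower (424.1 and 163.9), and Ajuba, which encodes a LIM protein at cadherin contacts, was 2.22-fold lower (714 and 322.3). Ctnnb1, the gene for beta-catenin, had signals of 4080 and 4374. Of 14 other connexin and pannexin genes matched, 10 were under the floor on both arrays, and Gja4, the gene for connexin 37, was 2.49-fold higher by a dim probe set (21.7 and 54).

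Genes that link membranes to actin were read beside Ezr. Among 10 relatives and partners of ezrin, Rdx, the gene for radixin, was 2.10-fold higher (245.7 and 516.4), and its other 2 probe sets were also higher (140.9 and 298, 50.5 and 77.8). Podxl, a sialomucin bound by ezrin through its partners, was 2.10-fold higher (29 and 61). Moesin, Msn, of the same family, was level (2353 and 2242), and Slc9a3r1, the gene for the ezrin-binding scaffold EBP50, had signals of 1183 and 732.5 (log2 ratio -0.69). The calls of Rdx and Podxl depend on scaling: none of this list was 2-fold higher with a common 75th percentile.

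**Figure D4:**
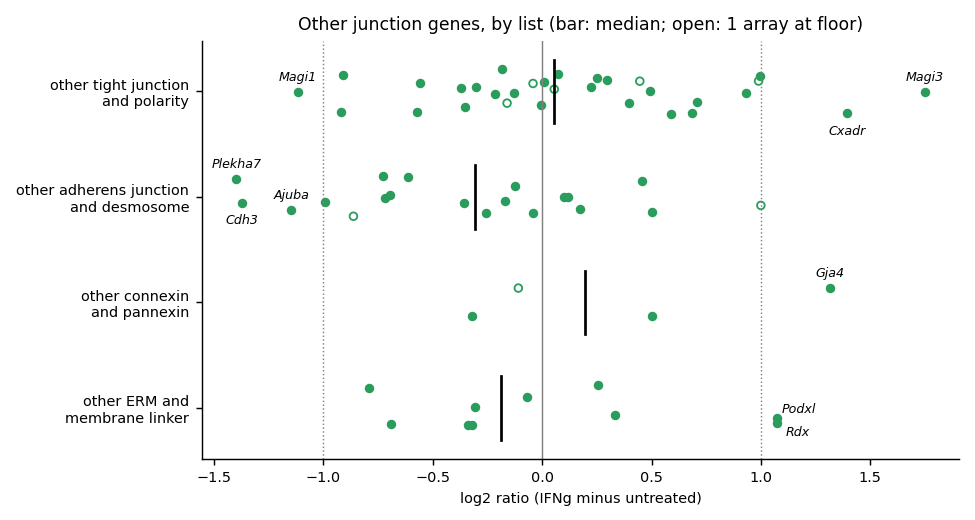
Log2 ratio (IFNg minus untreated) of 65 measured junction genes outside the member list, by list, with the list median as a bar and dotted lines at 2-fold. Names mark the 9 genes past 2-fold, from Plekha7 at -1.40 to Magi3 at 1.75.

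Upstream sequences were available from RefSeq (GRCm38.p6) for 30 of the 36 genes, as 42 windows of 250 bases before a start site. They were searched on both strands for the core of the interferon-stimulated response element, and for CAGGTG, the E-box form bound by Snail and Zeb repressors of epithelial genes. The response element core was found for 1 of 30 genes (3.33%, Cldn7), against 3.46% of 27025 genes. The E-box letters were found for 11 of 30 (36.7%), against 19.4%. By window the E-box shares were 31% of 42 and 17.2% of 32851. Junction windows were richer in G and C, with a median of 61% against 52.4%, and no allowance was made for this. A match is a description of letters and not a binding site.

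Of the 11 genes with the E-box letters, 5 have a single window that ends at the gene's annotated start and were measured. Their sequences show where the motif (capitals, in either orientation) falls: Pard6b at chr2:168080754-168081003 and Epcam at chr17:87635729-87635978 hold it at 2 places, and F11r at chr1:171437311-171437560 at 1, all on the plus strand. Gjb2 at chr14:57104703-57104952 and Cldn4 at chr5:134946935-134947184, both on the minus strand, hold it within the last 14 bases before the start. On the arrays these 5 genes ran from a log2 ratio of -0.84 for Pard6b, a bound, to 0.20 for Cldn4.
Pard6b: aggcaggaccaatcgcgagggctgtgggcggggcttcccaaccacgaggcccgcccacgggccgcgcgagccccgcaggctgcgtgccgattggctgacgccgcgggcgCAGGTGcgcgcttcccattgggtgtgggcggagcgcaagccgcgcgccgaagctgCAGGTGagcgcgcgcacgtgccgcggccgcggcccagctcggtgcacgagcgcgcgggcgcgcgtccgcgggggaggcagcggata
Epcam: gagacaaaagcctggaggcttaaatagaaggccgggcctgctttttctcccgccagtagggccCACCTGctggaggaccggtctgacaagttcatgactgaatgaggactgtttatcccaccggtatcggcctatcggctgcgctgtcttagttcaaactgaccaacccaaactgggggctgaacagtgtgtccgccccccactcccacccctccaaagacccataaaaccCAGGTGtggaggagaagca
F11r: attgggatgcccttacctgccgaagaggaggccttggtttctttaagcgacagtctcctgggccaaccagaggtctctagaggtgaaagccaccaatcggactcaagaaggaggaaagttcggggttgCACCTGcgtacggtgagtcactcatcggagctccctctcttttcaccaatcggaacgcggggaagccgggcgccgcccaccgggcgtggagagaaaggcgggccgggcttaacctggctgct
Gjb2: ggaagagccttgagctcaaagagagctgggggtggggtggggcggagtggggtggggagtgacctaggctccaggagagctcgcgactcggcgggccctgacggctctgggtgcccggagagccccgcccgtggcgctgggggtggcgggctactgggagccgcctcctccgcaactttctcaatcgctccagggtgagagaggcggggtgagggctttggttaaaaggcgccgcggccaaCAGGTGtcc
Cldn4: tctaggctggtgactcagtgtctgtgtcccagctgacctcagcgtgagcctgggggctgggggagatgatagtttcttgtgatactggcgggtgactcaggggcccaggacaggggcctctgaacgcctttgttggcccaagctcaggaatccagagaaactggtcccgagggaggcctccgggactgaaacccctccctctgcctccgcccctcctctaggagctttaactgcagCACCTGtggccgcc

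Among 234 values of single genes under the alternatives of scaling, floor and probe-set choice, 222 moved by less than the SD between probe sets of a gene. Many of the 234 could hardly move. Quantified genes kept their value with the lower floor, and genes with 1 probe set kept theirs when probe sets were averaged. The deposited arrays were already almost equal in scale. Genes that an alternative left unmeasured or without a probe set are not among the 234. Of the 12 that moved further, 9 came from averaging probe sets or from leaving out those with shared sequence, and 3 from a lower floor or a pseudocount in place of the floor. Without probe sets of shared sequence Prkci changed sign (log2 ratio -0.32), as did Ctnnd1 (-0.52). Averaging gave Gjc1 -0.62 and Ctnna1 0.54.

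**Figure D5:**
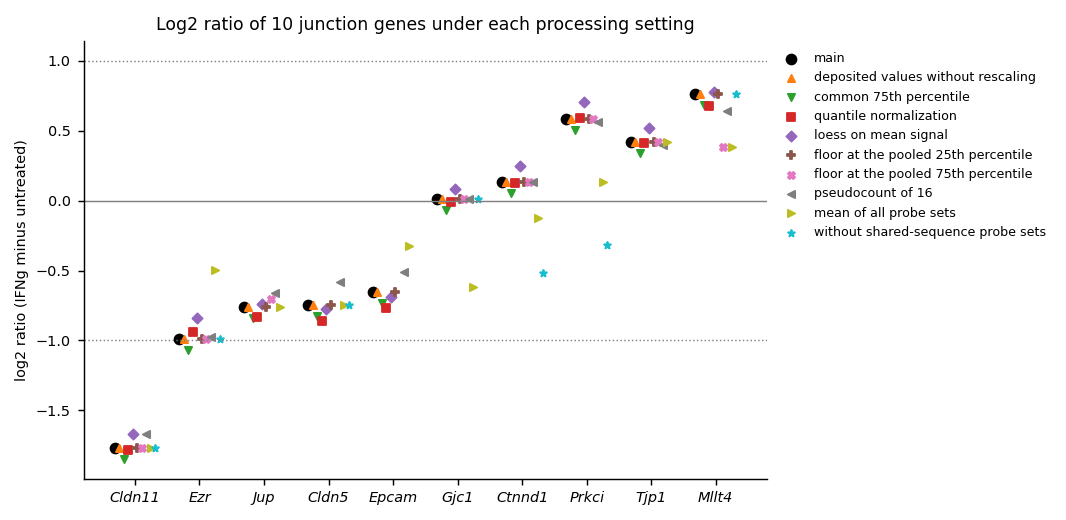
Log2 ratio (IFNg minus untreated) of 10 junction genes under the processing used in the text (black circle, labelled main) and 9 alternatives, with dotted lines at 2-fold. Cldn11 stays between -1.85 and -1.67 under all of them, though other floors and probe-set rules could not move it. Ezr crosses the lower line with a common 75th percentile, and Prkci, Ctnnd1 and Gjc1 move with the choice of probe set.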

How the data were processed

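RNA from 2 cultures was amplified, biotin-labelled and hybridised to 1 Affymetrix mouse array each, per the labels' protocols. The authors deposited linear intensity values per probe set, and both deposited columns have a 2% trimmed mean of 100. For summarisation software, background correction and detection calls, no tool is named in the sources used here. The 64 control probe sets were left out. Arrays were scaled to a common 2% trimmed mean, signals under the pooled median were raised to it, and log2 was taken. Gene names came from the platform annotation, in which 34945 probe sets name 1 gene, 932 several and 9160 none, updated through RefSeq identifiers (GRCm38.p6). No probe set named a junction gene together with another gene.

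All 36 members were named, with from each list of other junction genes those past 2-fold (at most 8), marker genes past 2-fold or defining a type, and further genes chosen after their values were seen. The members and lists were chosen with earlier results of these data known. No test was run, since each group had 1 array. The 7 marker lists covered RPE, fibroblasts, endothelium, macrophages, photoreceptors, other ocular epithelium and glia. Median log2 ratios of the lists were -0.43 for endothelium, -0.17 for fibroblasts, -0.76 for macrophages, -0.86 for photoreceptors (2 genes), -0.25 for other ocular epithelium, -0.12 for RPE and -0.25 for glia. A further list and motif that were examined are not reported here. The calling steps were tested on simulated data. Alternatives were other scalings, floors, a pseudocount of 16, probe-set rules and thresholds. Scripts ran in Python 3.11.15 (pandas 2.3.3, numpy 2.4.6, statsmodels 0.14.6, scipy 1.17.1, matplotlib 3.10.9).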

Additional observations from a re-analysis of the deposited data

How the results depend on the processing

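Cldn11 was at least 2-fold lower under all 9 alternatives of scaling, floor and probe-set choice and at 3-fold. Its value could not change with the other floors or probe-set rules, since its single probe set lay above every floor tried. The median log2 ratio of the measured members moved by less than the SD between probe sets of a gene under each of the 9. The counts past 2-fold, 0 higher and 1 lower, became 0 and 2 with a common 75th percentile, 2 and 3 with the lower floor, at the pooled 25th percentile (Cldn3 and Tjp3 higher, Cldn11, Cldn2 and Pard6b lower, of 34 measured members), 1 and 2 with a pseudocount of 16, and 2 and 7 at 1.5-fold. The lower floor admits dimmer signals, whose background is unknown, and there 13.6% of all measured genes were 2-fold higher and 12.4% lower. Signal over background therefore limits what can be said of the 8 members under the floor.

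Several genes of the other junction lists lay close to 2-fold in the processing used in the text. Among them, Ppl and Arvcf were just inside it, and Rdx and Podxl were 2.10-fold higher. The lists of other junction genes moved as follows, where the cause was not tested unless the threshold itself changed. Other tight junction and polarity genes, 2 higher and 1 lower, became 3 lower with quantile normalization, 4 higher with loess, 4 higher and 2 lower with the lower floor, 1 and 0 with the floor set at the 75th percentile of both arrays, 3 higher and 0 lower with the pseudocount, 0 lower with probe sets averaged or without shared-sequence probe sets, 8 and 3 at 1.5-fold and 1 and 0 at 3-fold. Other adherens junction and desmosome genes, 0 and 3, became 1 higher with deposited values not rescaled and with the pseudocount, 2 and 5 with the lower floor, 1 lower with probe sets averaged, 4 lower with a common 75th percentile, quantile normalization or loess, 2 lower with the 75th-percentile floor or without shared-sequence probe sets, 1 and 9 at 1.5-fold and 0 lower at 3-fold. Connexins and pannexins, 1 and 0, became 3 and 3 with the lower floor and 0 higher with the 75th-percentile floor, the pseudocount and 3-fold. Ezrin relatives and partners, 2 and 0, became 0 higher with a common 75th percentile, with probe sets averaged and at 3-fold, 1 higher with quantile normalization, the 75th-percentile floor and the pseudocount, 1 lower without shared-sequence probe sets and 2 lower at 1.5-fold. No paired analysis was possible because each group holds 1 array.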

Other observations

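Of 11 measured RPE markers, 4 passed 2-fold, all on the lower side (36.4%, against 4.48% of measured genes lower and 8.81% higher). They were the retinol and thyroxine carrier Ttr (89.4 and 29.4), the melanosome enzyme gene Tyrp1 (53.1 and 21.7), the retinol dehydrogenase Rdh5 (468.9 and 202.7) and the retinal-binding Rlbp1 (73.2 and 35.1). These are values of chosen probe sets. The other 3 of Ttr were under the floor with IFNg (29.9 and 17.9, 33.3 and 17.3, 46.4 and 18.5), and those of Tyrp1 opposed each other (55.9 and 10, 17.7 and 25.7). The keratin gene Krt18, whose protein forms filaments that desmosomes anchor, was 1.76-fold higher (1390 and 2446) beside a level Krt8. Among 8 measured macrophage markers Csf1r (202.8 and 77.5), Fcer1g (46 and 10.6) and Laptm5 (40.9 and 8.7) were at least 2-fold lower by their chosen probe sets (37.5%, against 4.48% of measured genes). The other Csf1r probe sets lay within 2-fold (66.6 and 45.2, 62.7 and 51.5), as did the other Laptm5 probe sets above the floor (30.6 and 26.8, 34.3 and 23.5). The summed macrophage signal was 1230 untreated and 762 with IFNg.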
